A study of Homo sapiens with 32 samples.

Results

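Cells of the human line HEK293 incubated with 4-thiouracil for 30 min were compared with cells of the 0 min time. The comparison rests on 16 of the 32 libraries in the series, 8 at 30 min and 8 at 0 min, taken by the minutes written in the labels and in the header of the count table. The 4 libraries of each biological replicate were summed, which gave 2 replicates at 30 min and 2 at 0 min. Of 32738 gene entries in the table, 10439 had enough counts to be tested, and all of these are covered. HEK293 is an established line of embryonic kidney origin that carries adenovirus DNA, and 4-thiouracil is a form of uracil with a sulphur atom that can be built into new RNA. Both times are the same line and the same polyadenylated RNA fraction, and the labels give the minutes as their difference. Entry of 4-thiouracil into RNA is usually driven by uracil phosphoribosyltransferase. Whether these cells carry a transgene for that enzyme, whether RNA with the label was purified, and what the 0 min cells received are not stated in the sources used here.

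As background, the amount of a transcript depends on how fast it is made and how fast it is degraded. RNA made within a short interval is rich in transcripts that are made quickly and lost quickly, while the whole RNA pool is rich in long-lived transcripts, such as those of ribosomal proteins and of the respiratory chain. Immediate-early genes, among them FOS, EGR1 and DUSP1, are switched on within minutes by growth factors and stress without new protein synthesis, and their mRNAs are short-lived. Labelling of new RNA for a few minutes is used to see such genes beside the stable background.

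The summed replicates held 1396056 and 1343632 counts at 30 min, against 1217384 and 1022116 counts at 0 min. The 50 most abundant entries took 11.5% and 10.96% of the counts at 30 min, against 21.8% and 23.8% at 0 min, and 14825 and 14895 entries had a count at 30 min, against 12371 and 11863 at 0 min. Levels are CPM, the usual share of a library's counts, with library sizes scaled by the trimmed mean of M values (TMM), where 1 count was worth 0.601 and 0.615 CPM at 30 min and 1.21 and 1.54 CPM at 0 min. Over the genes tested, log2 CPM correlated at r = 0.956 between the 30 min replicates, 0.922 between the 0 min replicates and 0.720 to 0.750 across the times. Levels are relative to the scaled library sizes, so fewer cells, fewer molecules per cell and a different pool of RNA cannot be told apart. They are not shares of the counts, which are given in percent and are unscaled. The libraries of 1 cDNA preparation differed by less than counting noise, with a chi-square of 0.333 to 0.507 for each degree of freedom, and so they were never used as separate samples, and counting intervals given below are too narrow. Of the kidney line markers, VIM, an intermediate filament protein, had 290.1 and 224 CPM at 30 min, against 500.4 and 432 CPM at 0 min. Of the 12 markers listed for the line 10 were in the table, and they took 0.0487% and 0.0404% of counts at 30 min, against 0.0416% and 0.0326% at 0 min. In scaled CPM the list summed to 408 and 334 at 30 min, against 613 and 514 at 0 min, most of it VIM. Of the 6 tested, 1 rose, 2 fell and 3 did not pass, against 32.1% higher and 23.8% lower over all genes. When library sizes were not scaled (total counts), 2 rose and 0 fell, against 5622 and 1331 of all 10439 genes. NES, PAX2 and LHX1 had too few counts to be tested, and INA had 0 in every replicate. Of 4 lists of 8 markers each for other cells, the highest share in any replicate was 0.00179% of counts, that of hepatocyte genes in replicate 2 of 30 min.

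At 30 min 3352 genes (32.1% of those tested) were higher than at 0 min and 2485 (23.8%) were lower at an adjusted p under 0.05 (edgeR quasi-likelihood F test, Benjamini-Hochberg adjustment over all 10439 genes), 55.9% in all. Of these, 2955 rose by more than 2-fold and 2038 fell by more than 2-fold. The log2 fold change, 30 min minus 0 min, had a median of 0.35 over all genes, with quartiles at -0.83 and 1.43. This median depends on the scaling: it was 0.18 with size factors of the RLE type and 1.22 with total counts alone, under which 5622 genes were higher and 1331 lower, and each fold change below is to be read against this median. Calls given below with total counts are to be read against those 5622 and 1331 of 10439 genes. Genes that rose were mostly rare at 0 min, with a median level of 17.6 CPM there, while those that fell had a median of 184 CPM. At 30 min the medians were 60.7 CPM for genes that rose and 63.5 CPM for those that fell. Both sets were chosen by these same values, so differences in their levels and in the shares below follow in part from the choice. Genes that rose held 36.4% and 37.3% of all counts at 30 min, against 7.10% and 6.30% at 0 min. Genes that fell held 41.3% and 40.6% at 30 min, against 80.5% and 82.5% at 0 min.

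**Figure D1:**
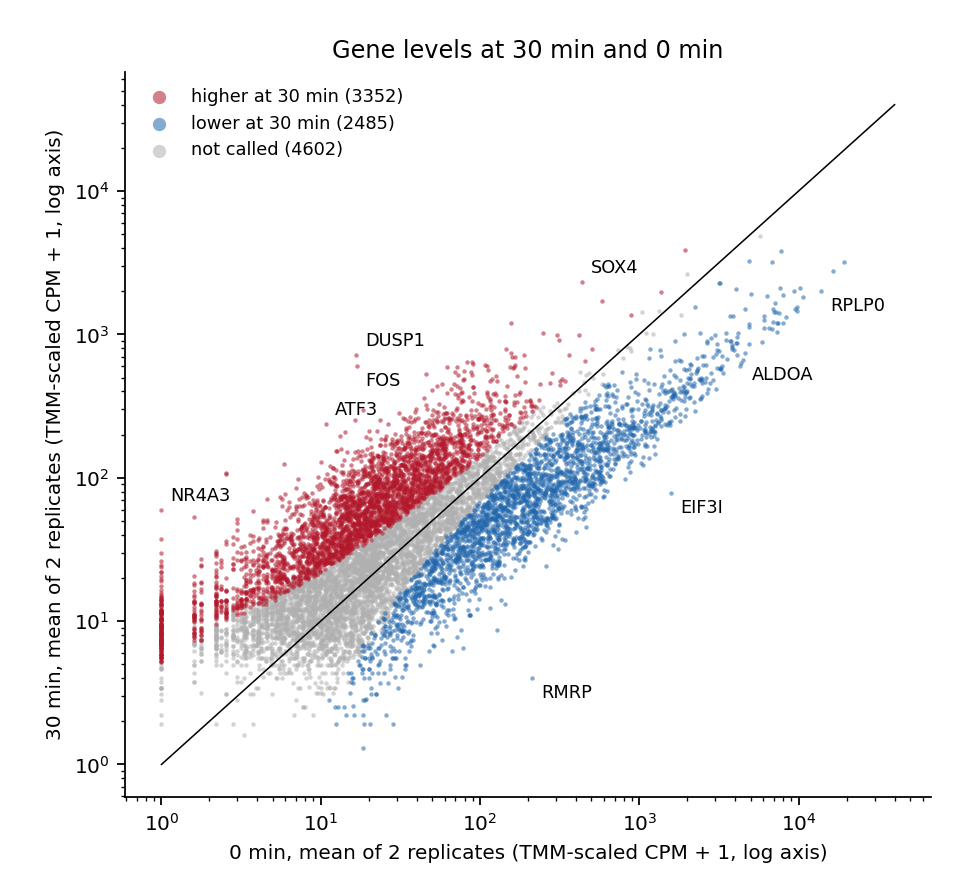
Mean level of each gene tested at 30 min (vertical, TMM-scaled CPM, log axis) against 0 min (horizontal, same unit), with 2 replicates at each time and 10439 genes, at CPM + 1 so that genes at 0 can be drawn. The 3352 genes called higher lie above the line of equal level and the 2485 called lower lie below it, with DUSP1 and FOS far above and EIF3I and RMRP far below.

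The transcription factors of the immediate-early response stood at the top of the increases. Of 32 such genes listed, 25 had enough counts to be tested and 24 of these rose, against 32.1% of all genes, and the 25 had a median log2 fold change of 2.95, against 0.35 over all genes. With members that had 0 counts at 0 min set to their lower bound the median was 2.66. In DESeq2 20 of the 25 rose, against 2489 of all 10439 genes. Both 30 min replicates lay above both 0 min replicates in 24 of the 25, against 45.8% of all genes. The listed genes together took 0.469% and 0.379% of counts at 30 min, against 0.0233% and 0.0276% at 0 min. The 1 tested member that did not pass was CSRNP1, with 27.6 and 14.1 CPM at 30 min, against 3.63 and 17.0 CPM at 0 min. Several members had so few counts at 0 min that their fold change is given below as a bound or as a ratio with a counting interval. Such members passed the filter through their counts at a labelled time, which can raise the share that rose.

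FOS, which pairs with JUN proteins to form the AP-1 factor, had 665 and 545 CPM at 30 min, against 8.46 and 23.2 CPM at 0 min. Both 30 min values lay far above both 0 min values, with a log2 fold change of 5.32 ± 0.30 (SE, edgeR adjusted p = 3.66e-15). Its partner JUN had 485 and 348 CPM, against 76.1 and 54.1 CPM, a log2 fold change of 2.66. ATF3, a stress-induced factor of the same bZIP class, had 277 and 196 CPM, against 7.25 and 12.4 CPM, a log2 fold change of 4.62. FOSB and JUNB were high in 1 replicate of 30 min more than in the other: FOSB had 51.0 and 19.1 CPM, against 0 and 3.09 CPM, and JUNB had 30.6 and 13.5 CPM, against 3.63 and 0 CPM. FOSB had 116 counts over the 30 min replicates, against 2 over the 0 min replicates, a ratio of 26.0 with an exact 95% counting interval of 7.03 to 217. JUNB no longer passed without replicate 1 of 30 min, where its adjusted p was 0.0717 (edgeR).

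EGR1, a zinc finger activator induced by growth factors through serum response factor, had 359.7 and 231 CPM at 30 min, against 7.25 and 27.8 CPM at 0 min. The groups did not overlap, and the log2 fold change was 4.16 ± 0.33 (SE, edgeR adjusted p = 1.55e-12). Its relatives EGR2 and EGR3 had 0 counts in both 0 min replicates. EGR2 had 13.8 and 7.38 CPM at 30 min, at least 5.23-fold higher than a floor of 3 counts over both 0 min replicates. EGR3 had 17.4 and 9.84 CPM at 30 min, at least 6.72-fold higher than the same floor. EGR2 lost its call without replicate 1 of 30 min (edgeR adjusted p = 0.0615).

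All 3 orphan nuclear receptors of the NR4A group rose. NR4A3 had 105 and 88 counts at 30 min, against 0 and 0 counts at 0 min, at least 28.8-fold higher against the same floor. NR4A2 had 344 counts over the 30 min replicates, against 2 over the 0 min replicates, a ratio of 77.1 with an exact 95% counting interval of 21.2 to 639. NR4A1 had 76.3 and 43.0 CPM, against 1.21 and 15.4 CPM, and DESeq2 did not call it (adjusted p = 0.0843, against 8.19e-05 in edgeR). Its values at 0 min were far apart.

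Among the more abundant members, the Krüppel-like factor KLF6 had 624 and 661 CPM at 30 min, against 82.2 and 80.3 CPM at 0 min, a log2 fold change of 2.98 ± 0.21 (SE). MYC, a growth-promoting factor, had 478 and 392 CPM, against 83.4 and 57.1 CPM, a log2 fold change of 2.61. IER2, a nuclear protein named for its immediate-early induction, had 261 and 159 CPM, against 12.1 and 30.9 CPM. In each of these genes both 30 min replicates lay above both 0 min replicates, as they did in 45.8% of all genes.

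The sequences just upstream of 4 of the strongest risers are shown because they are textbook examples of promoters of fast-induced genes. Each line gives the 180 bases before the RefSeq start of the gene (GRCh38.p14, 5′ to 3′ on the strand of the gene). Capitals mark a TATA motif (TATAAA) in FOS, DUSP1 and CTGF, a palindromic cyclic AMP response element (TGACGTCA) in DUSP1, the CArG boxes bound by serum response factor in EGR1, and GGAATG, the core letters bound by TEAD factors, in CTGF.
FOS, chr14:75278648-75278827, plus strand: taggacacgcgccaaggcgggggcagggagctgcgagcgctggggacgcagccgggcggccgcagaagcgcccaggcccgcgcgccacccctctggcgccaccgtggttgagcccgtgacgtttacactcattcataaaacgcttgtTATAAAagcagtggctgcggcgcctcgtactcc
EGR1, chr5:138465299-138465478, plus strand: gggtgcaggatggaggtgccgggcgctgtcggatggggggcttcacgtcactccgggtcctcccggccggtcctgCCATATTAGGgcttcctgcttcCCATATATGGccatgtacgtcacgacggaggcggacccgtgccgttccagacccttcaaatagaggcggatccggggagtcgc
DUSP1, chr5:172771196-172771375, minus strand: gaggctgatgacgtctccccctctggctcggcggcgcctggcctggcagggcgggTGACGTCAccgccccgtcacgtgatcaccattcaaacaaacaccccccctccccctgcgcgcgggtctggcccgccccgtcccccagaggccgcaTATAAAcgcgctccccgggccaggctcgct
CTGF, chr6:131951373-131951552, minus strand: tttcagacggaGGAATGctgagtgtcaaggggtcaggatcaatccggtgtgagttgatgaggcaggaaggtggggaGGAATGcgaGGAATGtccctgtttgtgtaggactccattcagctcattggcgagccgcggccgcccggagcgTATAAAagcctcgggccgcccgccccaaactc
The TATA motif began 33 bases before the start in FOS, 30 in DUSP1 and 32 in CTGF, the CArG boxes 105 and 83 bases before the start of EGR1, and the response element 125 bases before that of DUSP1. Over the 250 bases upstream of all 35116 RefSeq starts, searched on both strands, 10.7% held TATAAA, 1.65% TGACGTCA, 1.16% a CArG box and 11.9% GGAATG. Of the 25 immediate-early genes with a promoter in the RefSeq table, 5 held TATAAA, 3 a CArG box and 3 TGACGTCA. Of 15 matched YAP and SRF targets, 6 held GGAATG and 5 a CArG box. A match describes letters in the reference and is not a measured binding site.

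Genes that restrain MAP kinase signalling rose as well. Of 10 tested members, 9 rose, against 32.1% of all genes, and the median log2 fold change was 2.68, and both 30 min replicates lay above both 0 min replicates in all 10, against 45.8% of all genes. DESeq2 called 7 of the 10 higher, against 2489 of all 10439 genes. DUSP1, the nuclear phosphatase that inactivates stress-activated MAP kinases, had the largest increase of all genes with at least 10 counts at each time: 816 and 621 CPM at 30 min, against 14.5 and 17.0 CPM at 0 min, a log2 fold change of 5.52 ± 0.28 (SE, edgeR adjusted p = 3.08e-16). DUSP5, a nuclear phosphatase of ERK, had 59.5 and 40.0 CPM, against 3.63 and 3.09 CPM. The receptor signalling inhibitors SPRY2 and SPRY1 had, for SPRY2, 117 and 92.8 CPM, against 13.3 and 12.4 CPM, and, for SPRY1, 95.5 and 92.8 CPM, against 13.3 and 15.4 CPM. The member that did not pass was DUSP4, at 8.41 and 9.22 CPM, against 3.63 and 6.18 CPM. TRIB1, a pseudokinase that acts as a scaffold in MAP kinase and C/EBP signalling and is no member of the list, was among the 10 largest increases of all genes, with 253 and 248 CPM, against 16.9 and 13.9 CPM.

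**Figure D2:**
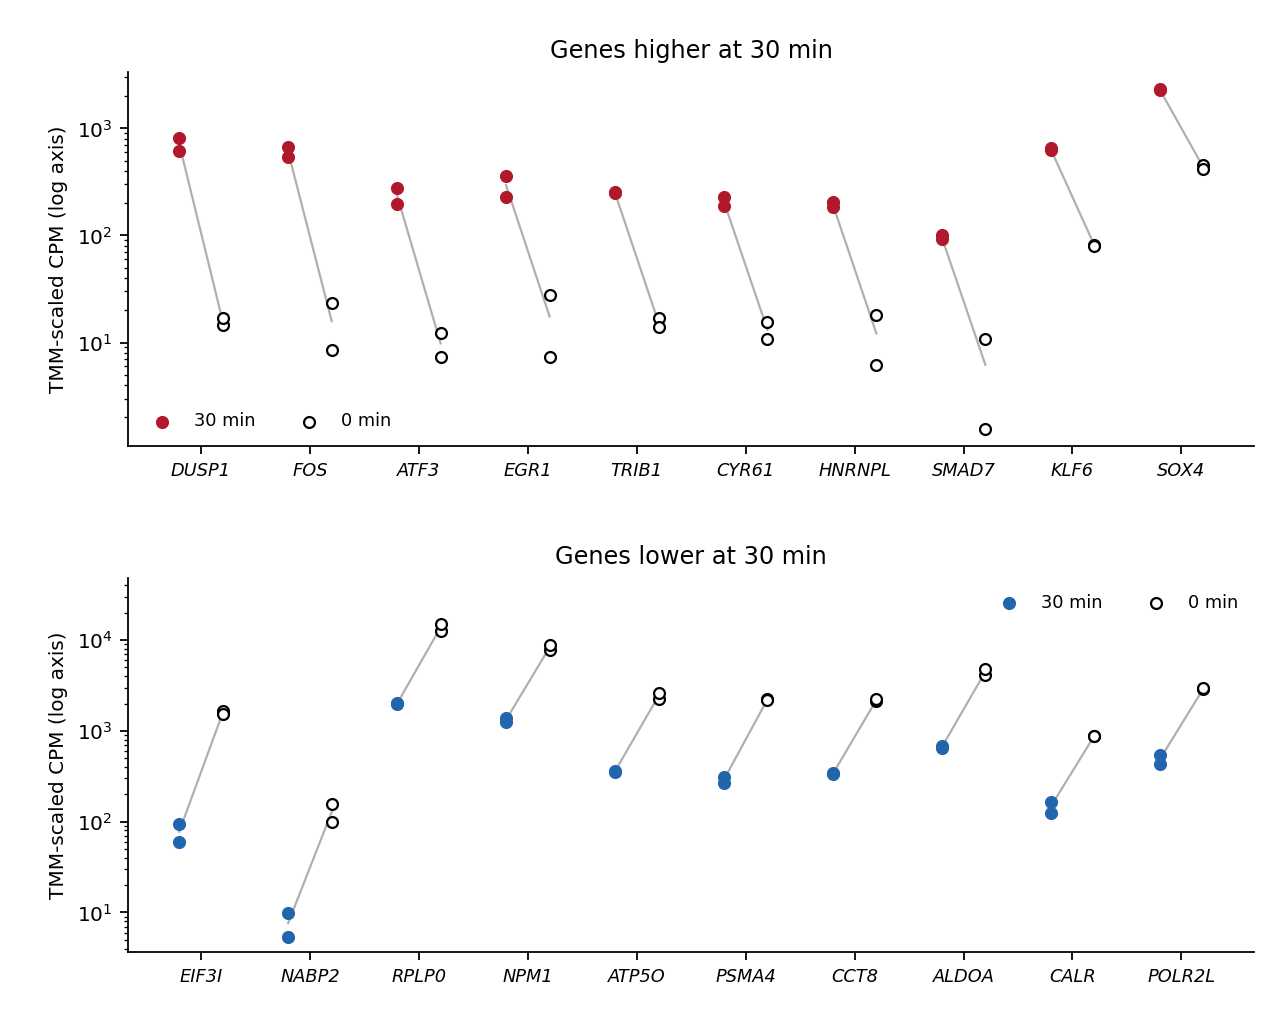
Level of 20 genes in each replicate (TMM-scaled CPM, log axis), with the 2 replicates of 30 min as filled circles left of the 2 of 0 min as open circles and a line between their means. In the 10 genes of the upper panel both 30 min values lie above both 0 min values, as for DUSP1 with 816 and 621 against 14.5 and 17.0 CPM, and in the 10 of the lower panel both lie below, as for RPLP0 with 1982 and 2008 against 12757 and 14942 CPM.

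All 10 tested members of a list of inhibitors that act on transcription downstream of BMP, TGF-beta and Notch rose, against 32.1% of all genes. Their median log2 fold change was 2.08. SMAD7, which blocks TGF-beta receptor signalling, had 100.3 and 92.2 CPM at 30 min, against 10.9 and 1.54 CPM at 0 min, a log2 fold change of 3.82 ± 0.41 (SE). The ID proteins, helix-loop-helix inhibitors of differentiation, rose by different amounts: ID1 had 64.9 and 31.4 CPM, against 3.63 and 3.09 CPM, while the abundant ID2 had 1515 and 1882 CPM, against 561 and 607 CPM, and ID3 had 762 and 674 CPM, against 183 and 193 CPM. HES1, the repressor induced by Notch, had 1132 and 834 CPM, against 257 and 346 CPM. Both 30 min replicates lay above both 0 min replicates in all 10, against 45.8% of all genes.

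Targets of YAP and of serum response factor moved both ways. Of 15 tested, 7 rose and 2 fell, with a median of 0.96, against 32.1% higher and 23.8% lower over all genes, and with total counts 10 rose and 0 fell. The matricellular proteins CTGF and CYR61, classical YAP targets, rose most: CYR61 had 228 and 187 CPM at 30 min, against 10.9 and 15.4 CPM at 0 min, a log2 fold change of 4.00, and CTGF had 352 counts over the 30 min replicates, against 2 over the 0 min replicates, a ratio of 78.9 with an exact 95% counting interval of 21.7 to 654. VCL, the focal adhesion protein vinculin, had 292 and 274 CPM, against 55.6 and 66.4 CPM. The actins ACTB and ACTG1 fell slightly, ACTG1 to 3493 and 2986 CPM at 30 min, against 5041 and 4663 CPM at 0 min, with a log2 fold change of -0.58. Under total count scaling both actins were instead above their 0 min level, at 0.35 for ACTB and 0.30 for ACTG1, and without replicate 1 of 0 min neither passed (edgeR adjusted p = 0.0830 and 0.0862); without replicate 2 of 30 min the values were 0.231 and 0.182.

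Genes of mRNA decay and growth arrest rose in part. Of 11 tested, 6 rose, against 32.1% of all genes, and the others did not pass, while with total counts all 11 rose. BTG2, an antiproliferative protein that recruits the deadenylase, had 156 and 119 CPM at 30 min, against 7.25 and 32.4 CPM at 0 min, and ZFP36L1, which targets AU-rich mRNAs for decay, had 90.1 and 59.0 CPM, against 20.5 and 18.5 CPM. CNOT1, the scaffold of the CCR4-NOT deadenylase, did not pass, with 156 and 148 CPM, against 100.3 and 149.8 CPM. Of 19 tested p53 targets 8 rose and 2 fell, which is 42.1% and 10.5%, against 32.1% and 23.8% of all genes. In DESeq2 5 rose and 2 fell, and with total counts 12 rose and 0 fell. MDM2, the ligase that degrades p53, had 112 and 99.6 CPM, against 42.3 and 27.8 CPM, and CCNG1, cyclin G1, had 123 and 157 CPM, against 341 and 295 CPM, a log2 fold change of -1.19 that did not pass with total counts (-0.31, edgeR adjusted p = 0.166). CDKN1A, the cell cycle inhibitor p21, did not pass, with 15.0 and 11.7 CPM, against 1.21 and 13.9 CPM. In the BCL2 family 4 of 12 rose and 3 fell, close to the shares of all genes (32.1% and 23.8%). Of its members the short-lived survival factor MCL1 had 179.6 and 138 CPM, against 59.2 and 38.6 CPM, the BH3 proteins BCL2L11 and PMAIP1 had, for BCL2L11, 179.6 and 175 CPM, against 27.8 and 26.3 CPM, and, for PMAIP1, 869.6 and 961 CPM, against 273 and 352 CPM, and the mitophagy receptor BNIP3L had 21.0 and 9.84 CPM, against 94.3 and 88.0 CPM.

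Regulators of transcription elongation and of chromatin made up a second group of increases. Of 13 tested genes of P-TEFb, its HEXIM inhibitors and their partners, 10 rose and 1 fell, against 32.1% and 23.8% of all genes, with a median of 1.72. DESeq2 called 8 higher and 1 lower, against 2489 and 2532 of all 10439 genes. CCNT1, the cyclin subunit of P-TEFb, had 292 and 319.7 CPM at 30 min, against 67.7 and 74.1 CPM at 0 min, a log2 fold change of 2.11 ± 0.21 (SE). The inhibitor HEXIM1 had 61.9 and 48.0 CPM, against 15.7 and 12.4 CPM, and HEXIM2 had 75 counts at 30 min, against 0 at 0 min, at least 11.2-fold higher against the floor. The bromodomain protein BRD2 had 579.5 and 439.6 CPM, against 151 and 188 CPM. LARP7, the protein that holds the 7SK RNA in the inhibitory particle, was the member that fell, with 61.9 and 73.2 CPM, against 179 and 184 CPM, a log2 fold change of -1.42.

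Of 79 tested chromatin modifiers 44 rose and 6 fell, against 32.1% and 23.8% of all genes, with a median of 1.43. With total counts 66 rose and 0 fell, where 5622 of all 10439 genes rose and 1331 fell. ARID1B, a subunit of the SWI/SNF remodeller, had 555 and 537 CPM at 30 min, against 76.1 and 60.2 CPM at 0 min, a log2 fold change of 2.99 ± 0.21 (SE). The demethylase KDM4C had 87.1 and 98.4 CPM, against 8.46 and 12.4 CPM, and the H3K4 methyltransferase KMT2A had 247 and 242 CPM, against 38.7 and 51.0 CPM. In the opposite direction, DNMT1, the maintenance DNA methyltransferase, had 223 and 207 CPM, against 492 and 479 CPM, and the H3K4 demethylase KDM5B had 54.7 and 59.6 CPM, against 138 and 158 CPM. Neither decrease passed with total counts (edgeR adjusted p = 0.125 and 0.0874). Of 44 ubiquitin-specific proteases 25 rose and 2 fell, against 32.1% and 23.8% of all genes, with a median of 0.90. In DESeq2 16 of them rose and with total counts 39, against 2489 and 5622 of all 10439 genes. Their values ran from USP32 with 138 and 142 CPM, against 19.3 and 24.7 CPM, to USP11 with 36.0 and 45.5 CPM, against 131 and 141 CPM.

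Subunits of Mediator and RNA polymerase II moved both ways: of 41 tested, 9 rose and 17 fell, against 32.1% and 23.8% of all genes. With total counts 16 rose and 12 fell. MED13, part of the kinase module of Mediator, had 267 and 244 CPM at 30 min, against 45.9 and 71.1 CPM at 0 min, and its paralogue MED13L had 137 and 153 CPM, against 35.1 and 18.5 CPM. MED17, a scaffold subunit, rose to 88.3 and 132 CPM, against 18.1 and 13.9 CPM. In contrast the small polymerase subunit POLR2L had 536 and 428 CPM, against 2872 and 2933 CPM, a log2 fold change of -2.59 ± 0.21 (SE), and POLR2G, a subunit of the stalk, had 109 and 106 CPM, against 592 and 652 CPM. The median of the list, -0.48, had the opposite sign with total counts, 0.41.

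Some of the largest increases fell outside these lists. HOXA13 and HOXB3, homeobox factors of body patterning, had, for HOXA13, 149.5 and 97.1 CPM at 30 min, against 3.63 and 6.18 CPM at 0 min, and, for HOXB3, 153 and 152 CPM, against 4.83 and 18.5 CPM. SOX4, a developmental factor of the SRY-box family, was one of the most abundant genes that rose, with 2282 and 2348 CPM, against 453 and 417 CPM, a log2 fold change of 2.41 ± 0.20 (SE). NUP210, a membrane protein of the nuclear pore, had 126 and 128 CPM, against 7.25 and 10.8 CPM. Of the genes that rose, 150 had 0 counts over both 0 min replicates and 206 more had 1 to 3. ELAVL2, a neuronal RNA-binding protein, had 172 counts over the 30 min replicates, against 1 over the 0 min replicates, a ratio of 77.1 with an exact 95% counting interval of 13.6 to 3061. EPG5, an autophagy tether, had 166 counts, against 3, a ratio of 24.8 with an interval of 8.34 to 121. The antisense entry CAPN10-AS1 had 156 counts, against 3, a ratio of 23.3 with an interval of 7.83 to 114, and its reads cannot be told apart from those of the gene that it overlaps.

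Most mRNAs of cytosolic ribosomal proteins fell. Of 86 tested cytosolic ribosomal proteins 81 fell, against 23.8% of all genes, and RPL7 alone rose. The median log2 fold change was -2.04, and -1.15 with total counts, under which 73 still fell. Together they took 8.07% and 7.50% of counts at 30 min, against 18.4% and 20.5% at 0 min. RPLP0, a protein of the ribosomal stalk, had 1982 and 2008 CPM at 30 min, against 12757 and 14942 CPM at 0 min, a log2 fold change of -2.80 ± 0.21 (SE, edgeR adjusted p = 5.99e-13). RPL8 and RPL35, both of the large subunit, had, for RPL8, 3358 and 3005 CPM, against 17365 and 21272 CPM, and, for RPL35, 3062 and 2476 CPM, against 14664 and 18039 CPM. RPL7 had 156 and 226 CPM, against 121 and 102 CPM, and lost its call without replicate 2 of 30 min (edgeR adjusted p = 0.107). Many ribosomal protein genes, and also GAPDH, NPM1 and H3F3A, have near-identical processed pseudogenes, so reads can be split between copies in a way the counts do not show.

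Most of these mRNAs start with a pyrimidine tract, the terminal oligopyrimidine motif through which mTOR controls their translation. The first 20 transcribed bases are shown for 4 genes that fell and 2 that rose, in GRCh38.p14 from the RefSeq start, with an unbroken pyrimidine run at the first base in capitals.
RPL35, chr9:124861938-124861957, minus strand: CTCTTTCCCTCggagcgggc
RPLP0, chr12:120201092-120201111, minus strand: CCTTCTCTCgccaggcgtcc
RPS23, chr5:82278335-82278354, minus strand: CTCTTTCgctcaggcccgtg
TPT1, chr13:45341164-45341183, minus strand: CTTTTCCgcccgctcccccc
FOS, chr14:75278828-75278847, plus strand: aaccgcatctgcagcgagca
DUSP1, chr5:172771176-172771195, minus strand: gcgaaggacatttgggctgt
The run was 11 bases in RPL35, 9 in RPLP0 and 7 in RPS23 and TPT1. A start with C followed by at least 4 pyrimidines was found in 48 of 68 matched ribosomal protein genes and in 12 of 14 matched translation factors of that class, against 4.07% of all RefSeq starts. In the nuclear genes of the respiratory chain it was found in 10 of 65, and in the proteasome in 1 of 29.

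Translation factors of the same class fell less evenly. Of 20 tested 15 fell and 2 rose, against 23.8% and 32.1% of all genes, with a median of -1.30. With total counts 10 fell and 5 rose. TPT1, the tumour protein TCTP, had 1137 and 942 CPM at 30 min, against 6559 and 7996 CPM at 0 min, and GNB2L1, the ribosomal scaffold RACK1, had 1501 and 1405 CPM, against 9102 and 10295 CPM. The helicase EIF4A2 and its cofactor EIF4B rose, EIF4A2 with 298 and 327 CPM, against 116 and 125 CPM, and EIF4B with 164 and 157 CPM, against 73.7 and 85.0 CPM. PABPC1, the poly(A)-binding protein, had 461 and 361 CPM, against 415 and 499 CPM, which overlapped.

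Subunits of the initiation factor eIF3 ranged widely. Of 12 tested 9 fell, against 23.8% of all genes, with a median of -1.10 (-0.21 with total counts, where 5 fell and 4 rose). EIF3I had the largest decrease of the list, with 60.1 and 95.3 CPM at 30 min, against 1638 and 1531 CPM at 0 min, a log2 fold change of -4.35 ± 0.22 (SE, edgeR adjusted p = 3.15e-16). The next largest decrease was EIF3K, with 192 and 231 CPM, against 1096 and 1271 CPM, a log2 fold change of -2.48, and the core subunit EIF3A had 498 and 491 CPM, against 606 and 417 CPM, which overlapped. EIF3I had already 90.9 and 96.8 CPM at 5 min and 108 and 165 CPM at 15 min. Of 20 aminoacyl-tRNA synthetases 15 fell and 1 rose, against 23.8% and 32.1% of all genes, with a median of -1.33. With total counts 10 fell and 4 rose, with a median of -0.46. QARS, which charges glutamine tRNA, had 66.1 and 69.5 CPM at 30 min, against 384 and 351 CPM at 0 min, and YARS, for tyrosine, had 149 and 156 CPM, against 91.9 and 63.3 CPM.

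Of 45 tested ribosome assembly factors 24 fell and 7 rose, against 23.8% and 32.1% of all genes, with a median of -0.64. With total counts 12 fell and 14 rose, with a median of 0.23. NPM1, the nucleolar chaperone nucleophosmin, had 1266 and 1375 CPM at 30 min, against 7793 and 8857 CPM at 0 min, and NHP2, a core protein of box H/ACA particles, had 372 and 333 CPM, against 2309 and 2496 CPM. POLR1A, the large subunit of RNA polymerase I, and HEATR1, a large processome protein, had, for POLR1A, 208 and 242 CPM, against 62.8 and 55.6 CPM, and, for HEATR1, 348 and 398 CPM, against 169 and 117 CPM. Host genes of small nucleolar RNAs, whose spliced RNAs are mostly degraded quickly, rose in 7 of 8 tested, against 32.1% of all genes, with a median of 1.11. DESeq2 called 5 of the 8 higher, against 2489 of all 10439 genes. ZFAS1 and SNHG15 had, for ZFAS1, 538 and 619.7 CPM, against 166 and 215 CPM, and, for SNHG15, 1007 and 955 CPM, against 373 and 465 CPM.

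Nuclear mRNAs of the respiratory chain fell almost throughout. Of 74 tested nuclear-encoded subunits of the chain and of ATP synthase 71 fell, against 23.8% of all genes, with a median of -2.22 (-1.33 with total counts, 66 lower). They took 2.26% and 2.11% of counts at 30 min, against 5.49% and 5.79% at 0 min. NDUFB5, of complex I, had 28.2 and 48.0 CPM, against 313 and 276 CPM, a log2 fold change of -2.95 ± 0.24 (SE). ATP5O, of the stator of ATP synthase, had 350.1 and 366 CPM, against 2255 and 2598 CPM. The 3 that did not pass were SDHC with 36.0 and 33.2 CPM, against 24.2 and 26.3 CPM, UQCRFS1 with 82.9 and 92.2 CPM, against 132 and 97.3 CPM, and ATP5D with 4.80 and 1.84 CPM, against 4.83 and 6.18 CPM.

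The partners of these proteins that are encoded in mitochondrial DNA showed no common direction. Of 11 tested mitochondrially encoded mRNAs 2 rose and 4 fell, against 32.1% and 23.8% of all genes. Their median was -0.12, and 0.76 with total counts, under which 8 rose and none fell. With RLE size factors 0 rose and 4 fell, and in DESeq2 0 rose and 5 fell, so that both increases lost their call there. MT-ND1, of complex I, was the most abundant of these at 30 min with 4895 and 4810.5 CPM, against 5389 and 6052 CPM at 0 min, and did not pass. MT-ND3 had 3336 and 3066 CPM, against 6401 and 7204 CPM, a log2 fold change of -1.09. The increases of MT-CO2 and MT-ND2, at 0.61 and 0.54, came with 30 min replicates that differed from each other (1679 and 1039 CPM for MT-CO2, 2327 and 1640.2 CPM for MT-ND2) and did not pass without replicate 1 of 30 min (edgeR adjusted p = 0.432 and 0.364) or of 0 min (0.173 and 0.143). Mitochondrial ribosomal proteins, which are encoded in the nucleus, fell in 58 of 71 tested and rose in 2, against 23.8% and 32.1% of all genes. Their median was -1.57, and with total counts 40 fell and 8 rose. MRPL40 had 83.5 and 100.2 CPM, against 519 and 621 CPM.

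**Figure D3:**
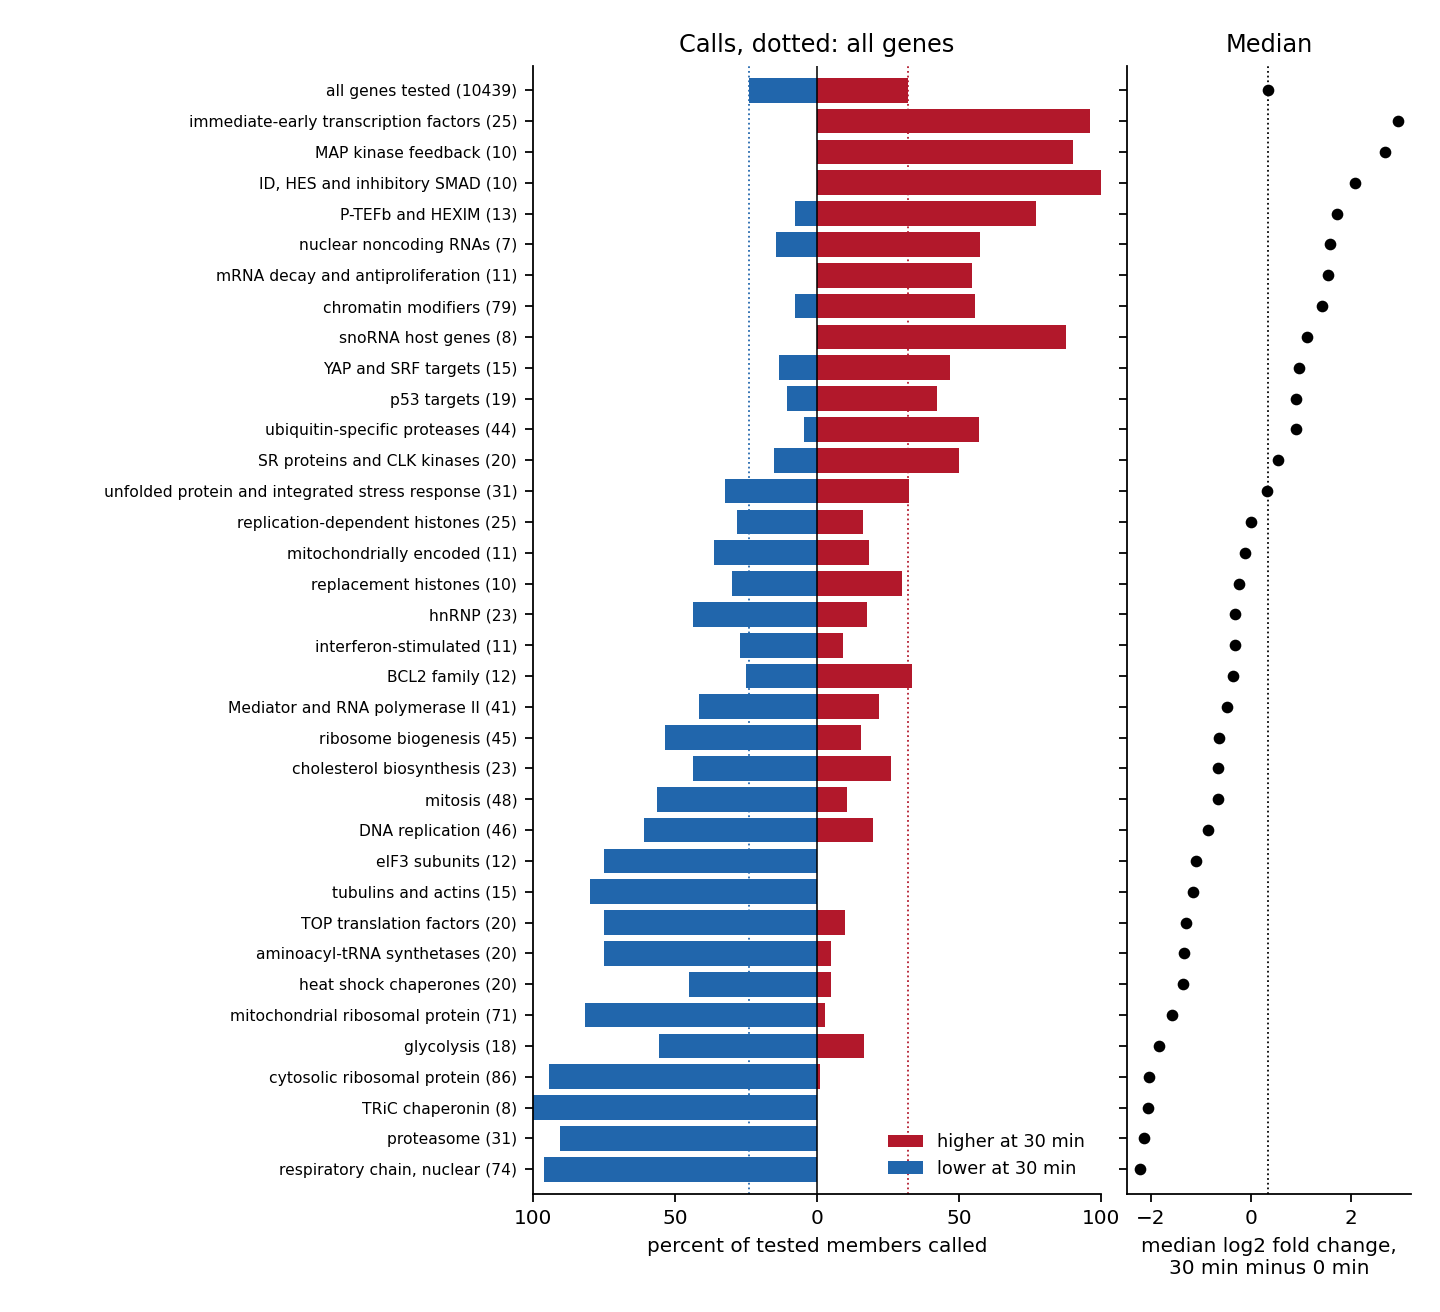
Share of the tested members of each gene list that were called higher (right, percent) or lower (left, percent) at 30 min than at 0 min, with the list's median log2 fold change in the right panel and the number tested in brackets. The top row gives all 10439 genes, of which 32.1% rose and 23.8% fell (dotted lines), and the lists, ordered by their median, run from the immediate-early factors, where 24 of 25 rose, to the respiratory chain, where 71 of 74 fell.

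Of 18 tested genes of glycolysis 10 fell and 3 rose, against 23.8% and 32.1% of all genes, and with total counts 9 fell and 6 rose. ALDOA, aldolase, had 679 and 643 CPM at 30 min, against 4146 and 4829.9 CPM at 0 min, and GAPDH had 1547 and 1451 CPM, against 6089 and 7647 CPM, a log2 fold change of -2.20 ± 0.20 (SE). The glucose transporter SLC2A3 and the hexokinase HK2, which starts the pathway, had, for SLC2A3, 87.7 and 68.9 CPM, against 27.8 and 23.2 CPM, and, for HK2, 42.0 and 38.1 CPM, against 23.0 and 9.27 CPM. HK2 lost its call without replicate 2 of 0 min (edgeR adjusted p = 0.0987). Of 23 genes of cholesterol synthesis 6 rose and 10 fell, which is 26.1% and 43.5%, against 32.1% and 23.8% of all genes. With total counts 8 rose and 5 fell. The feedback regulator INSIG1 had 286 and 236 CPM at 30 min, against 59.2 and 64.9 CPM at 0 min, and HMGCS1, an early enzyme, had 197 and 182 CPM, against 43.5 and 75.7 CPM. The late enzyme EBP had 62.5 and 50.4 CPM, against 429 and 469.6 CPM, a log2 fold change of -2.99. The median of the list, -0.65, changed sign with total counts (0.22).

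Among mRNAs of protein folding and turnover, those of the chaperonin TRiC and of the proteasome fell in most members and those of heat shock chaperones in 9 of 20. All 8 subunits of the cytosolic chaperonin TRiC fell, against 23.8% of all genes, with a median of -2.05. They ran from CCT8 with 332 and 340.0 CPM at 30 min, against 2138 and 2243 CPM at 0 min, to CCT4 with 253 and 266 CPM, against 346 and 352 CPM. CCT4 had the smallest decrease: its log2 fold change of -0.43 was 0.45 with total counts, and it did not pass without replicate 1 or 2 of 0 min (edgeR adjusted p = 0.107 and 0.120), replicate 1 or 2 of 30 min (0.210 and 0.134) or replicate 2 of 15 min (0.0715). Of 31 proteasome subunits 28 fell, against 23.8% of all genes, with a median of -2.14. PSMA4 of the core ring had 269 and 309.8 CPM, against 2242 and 2212 CPM. Of the 20 heat shock chaperones 9 fell and 1 rose, against 23.8% and 32.1% of all genes, and 10 did not pass. With total counts 9 fell and 5 rose. The mitochondrial pair HSPD1 and HSPE1 had, for HSPD1, 525 and 617 CPM, against 3196 and 3213 CPM, and, for HSPE1, 342 and 256 CPM, against 1944 and 1986 CPM, and the constitutive HSP90AB1 had 883 and 840.4 CPM, against 2978 and 3173 CPM. The stress-inducible HSPA1A, which shares most of its sequence with HSPA1B, did not pass, with 356 and 274 CPM, against 299.7 and 279.6 CPM.

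The unfolded protein and integrated stress responses gave no common direction, with 10 of 31 higher and 10 lower, against 32.1% and 23.8% of all genes. With total counts 19 rose and 5 fell. Among those that rose, EIF2AK3, the kinase PERK, had 52.8 and 46.7 CPM at 30 min, against 7.25 and 0 CPM at 0 min, and the factor XBP1 had 121 and 108 CPM, against 36.3 and 54.1 CPM. Among those that fell were CALR, the folding protein calreticulin, with 166 and 126 CPM, against 879 and 883 CPM, a log2 fold change of -2.59 ± 0.19 (SE), and PDIA6 with 230.0 and 215 CPM, against 747 and 1009 CPM. The central factor ATF4 had 545 and 511 CPM, against 595 and 584 CPM, and DDIT3, which encodes CHOP, had 139 and 125 CPM, against 123 and 86.5 CPM, and neither passed. ASNS, asparagine synthetase, a target of ATF4, had 61.9 and 62.1 CPM, against 204 and 256 CPM. Interferon-stimulated genes were rare at both times, and 11 of 28 were tested. Of these 1 rose and 3 fell, which is 9.09% and 27.3%, against 32.1% and 23.8% of all genes. With total counts 3 rose and 2 fell.

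Of 48 tested mitotic genes 27 fell and 5 rose, against 23.8% and 32.1% of all genes. With total counts 12 fell and 15 rose, and the median of -0.66 became 0.22. CCNB1, cyclin B1, had 95.5 and 106 CPM at 30 min, against 421 and 463 CPM at 0 min, and ASPM, a spindle pole protein, had 188 and 162 CPM, against 50.8 and 66.4 CPM. Of 46 DNA replication genes 28 fell and 9 rose, against 23.8% and 32.1% of all genes. With total counts 11 fell and 15 rose, and the median of -0.85 became 0.02. RPA3, of the single-strand binding complex, had 99.7 and 92.8 CPM, against 500.4 and 551 CPM, a log2 fold change of -2.45.

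Of 15 tubulins and actins 12 fell, against 23.8% of all genes, with a median of -1.15. With total counts 7 fell and the median was -0.27. TUBA1B, the main alpha-tubulin, had 1728 and 1948 CPM at 30 min, against 6034 and 6549 CPM at 0 min, a log2 fold change of -1.77 ± 0.19 (SE), larger than that of the actins given above. Among replication-dependent histones, whose mRNAs normally lack a poly(A) tail, 25 of 69 were tested. Of these 4 rose and 7 fell, against 32.1% and 23.8% of all genes, with a median of 0.01. The most abundant, HIST1H4C, had 3741 and 3912 CPM, against 6928 and 8640.4 CPM. With total counts 12 of them rose and 1 fell, and HIST1H4C did not pass (edgeR adjusted p = 0.446). Of 10 replacement histones 3 rose and 3 fell, near the shares of all genes (32.1% and 23.8%), and with total counts 5 rose and 2 fell. H3F3A and H3F3B encode the same histone H3.3 protein, yet H3F3A had 435 and 398 CPM, against 3014 and 3006 CPM, a log2 fold change of -2.85, and H3F3B had 2169 and 2361 CPM, against 3013 and 3338 CPM, a log2 fold change of -0.49. With total counts these were -1.97 and 0.40, and H3F3B did not pass without replicate 1 or 2 of 0 min (edgeR adjusted p = 0.0559 and 0.165) or of 30 min (0.218 and 0.102).

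Splicing regulators of the SR class and their CLK kinases rose in 10 of 20 and fell in 3, against 32.1% and 23.8% of all genes. With total counts 17 rose and 1 fell. SRSF2 and SRSF4 had, for SRSF2, 392 and 339 CPM at 30 min, against 94.3 and 128 CPM at 0 min, and, for SRSF4, 213 and 199.8 CPM, against 65.3 and 57.1 CPM, and the kinase DYRK1A had 231 and 267 CPM, against 50.8 and 24.7 CPM, while SRSF3 had 582 and 544 CPM, against 1415 and 1685 CPM. Of 23 hnRNP genes 10 fell and 4 rose, against 23.8% and 32.1% of all genes. With total counts 6 fell and 12 rose. HNRNPL, a splicing regulator that binds CA repeats, was among the 10 largest increases of all genes, with 207 and 183 CPM, against 18.1 and 6.18 CPM, a log2 fold change of 3.92 ± 0.32 (SE). The most abundant member, HNRNPA2B1, had 769 and 679.9 CPM, against 3192 and 2882 CPM, a log2 fold change of -2.07.

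Nuclear noncoding RNAs also differed from one another, with 4 of 7 tested higher and 1 lower, against 32.1% and 23.8% of all genes. With total counts 6 were higher and 1 lower. NEAT1, the scaffold of paraspeckles, had 337 and 345 CPM at 30 min, against 112 and 116 CPM at 0 min, and KCNQ1OT1, an imprinted antisense transcript, had 144 and 99.6 CPM, against 25.4 and 15.4 CPM. MALAT1, a stable and abundant RNA of nuclear speckles, had 1790.3 and 2024 CPM, against 5219 and 4875 CPM, a log2 fold change of -1.40 ± 0.19 (SE). Since no source used here says whether counting took account of strand, KCNQ1OT1 cannot be told apart from the gene that it overlaps.

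The largest decrease of all was RMRP, the RNA of the RNase MRP particle, which is made by RNA polymerase III and carries no poly(A) tail. It had 10 and 0 counts at 30 min, against 165 and 144 counts at 0 min, a log2 fold change of -6.07 ± 0.52 (SE, edgeR adjusted p = 6.39e-12), and 9.44 and 0 CPM at 5 min and 2.59 and 3.42 CPM at 15 min. Next to EIF3I, and in this order of fold change, came NABP2, a single-strand DNA-binding protein, with 5.41 and 9.84 CPM at 30 min, against 99.1 and 156 CPM at 0 min, and ISY1, a splicing factor, with 5.41 and 5.53 CPM, against 91.9 and 63.3 CPM. VPS16, of a complex that tethers endosomes to lysosomes, had 3.00 and 7.38 CPM, against 65.3 and 66.4 CPM, and SLC50A1, a sugar transporter, had 30 and 10 counts, against 131 and 83 counts. CTSV, a lysosomal protease, had 29.4 and 17.2 CPM, against 228 and 290.4 CPM, and PPT2, a lysosomal thioesterase, had 3.00 and 10.5 CPM, against 54.4 and 86.5 CPM. PFN2, an actin-binding profilin, had 45.0 and 44.3 CPM, against 453 and 468 CPM, a log2 fold change of -3.36, and KRTCAP2, a subunit of the oligosaccharyltransferase, had 17.4 and 8.61 CPM, against 133 and 136 CPM. In these 8 genes both 30 min replicates lay below both 0 min replicates, which the rule that chose them required.

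The other way round, 5 genes that fell had at most 3 counts over the 30 min replicates. C10orf32 had 3 counts over the 30 min replicates, against 41 over the 0 min replicates, and MFAP2, a microfibril protein, had 3, against 28. PET100, an assembly factor of cytochrome c oxidase, had 3 counts, against 26, and EFHD1, a mitochondrial calcium-binding protein, had 3, against 17. The fifth, TMBIM4, whose symbol stands on more than one entry, had 1 count, against 25. The ratio of 0 min to 30 min was 30.5 for C10orf32, with an exact 95% counting interval of 9.73 to 154, and 12.6 for EFHD1, with an interval of 3.66 to 67.4. PET100 lost its call without replicate 2 of 30 min (edgeR adjusted p = 0.0521) and EFHD1 without replicate 1 of 30 min (0.0694).

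Gene size ran along with the direction of change. Of 10413 tested entries with a symbol of their own, 9519 were found in GENCODE release 29, 9322 of them protein-coding. Across these 9322 genes the log2 fold change had a Spearman correlation of 0.418 with the genomic span of the gene, 0.403 with exonic length and 0.233 with the number of exons. These are descriptions across genes, which share the same 4 replicates and are not independent of one another. In the shortest of 10 groups of genes ordered by span (up to 6.69 kb) 14.9% rose and 45.3% fell, with a median of -0.74. In the longest (from 185 kb) 66.8% rose and 3.54% fell, with a median of 1.61. Between them each group had a higher median than the one before it, and the fifth was at -0.08. These shares and medians are with TMM scaling, and the groups were not computed with total counts. The median of all genes was 0.35 with TMM scaling and 1.22 with total counts. The sign of a group's median and its share that fell can therefore depend on the scaling.

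**Figure D4:**
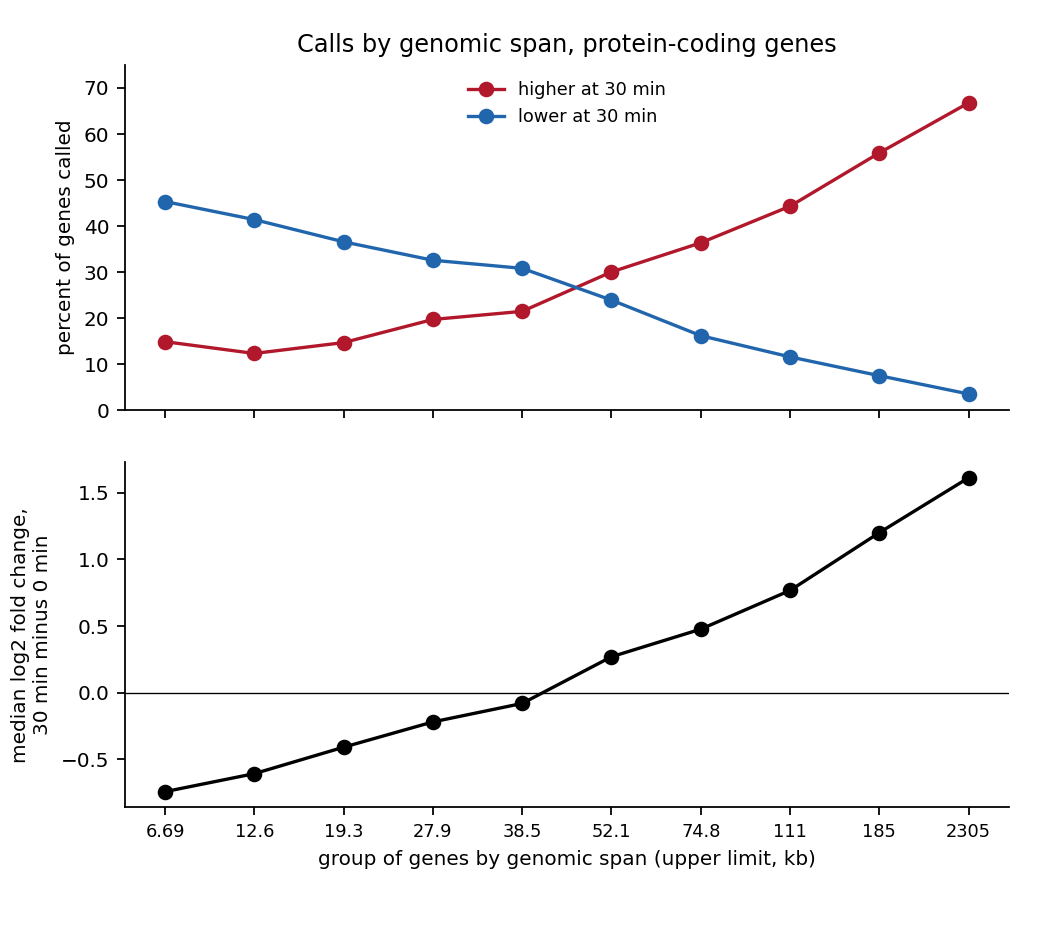
Percent of protein-coding genes called higher and lower at 30 min than at 0 min (upper panel) and the median log2 fold change (lower panel) in 10 groups of 931 to 933 genes ordered by genomic span. The percent higher is 14.9% in the shortest group and 66.8% in the longest, while the percent lower is 45.3% in the shortest and 3.54% in the longest. Calls and fold changes are with TMM scaling only.

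The immediate-early and feedback genes went against that order. Of 1865 genes in the 2 shortest groups 254 rose, and of the 36 of these that are on the immediate-early, MAP kinase feedback, mRNA decay, YAP and SRF, or ID, HES and SMAD lists 34 rose. List members near 0 at 0 min passed the filter through their counts at a labelled time, which can raise this share. The lists were also chosen with earlier results of these data known. Of the 20 largest increases among these short genes with at least 10 counts at each time, 12 were on those lists. Others, chosen after their values were seen, were BHLHE40, a clock-linked repressor, with 112 and 83.0 CPM at 30 min, against 9.67 and 10.8 CPM at 0 min, ADAMTS1, a secreted protease, with 665 and 518 CPM, against 55.6 and 66.4 CPM, and SNAI2, the repressor SLUG, with 111 and 95.9 CPM, against 18.1 and 12.4 CPM. On the other side, 33 of 933 genes in the longest group fell. Among them were CMSS1, a gene spanning 364 kb, at 93.1 and 78.7 CPM, against 456 and 525 CPM, the mitochondrial ribosomal protein MRPS22 at 52.2 and 45.5 CPM, against 239 and 275 CPM, and the glycolytic enzyme PGK1 at 241 and 261 CPM, against 1203 and 1342 CPM.

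By type of gene, 48 of 113 antisense entries rose and 7 fell, against 32.1% and 23.8% of all genes, with a median of 1.33, and 26 of 50 long intergenic noncoding entries rose and 3 fell, with a median of 1.09, against 0.30 over protein-coding genes. The 465 tested entries known by a clone name had a median of 1.58, and 201 of them rose and 21 fell. Entries near 0 at 0 min were tested only if they had counts at a labelled time. This filter can raise the share that rose, and the median, among rare entries of any type. Reads of an antisense entry and of the gene it overlaps cannot be told apart without the strand. Among families of protein genes that share the letters of their symbol, of at least 12 members and listed after their values were seen, zinc finger genes named ZNF had 117 of 315 higher and 15 lower, with a median of 0.86. The KLHL adaptors of ubiquitin ligases had 12 of 20 higher and 1 lower, with a median of 1.69, the ARHGAP activators of small GTPases 12 of 18 higher, with a median of 1.45, and the HOXA cluster 7 of 12 higher, with a median of 1.88. The lowest medians were those of COX (-2.06), RPL (-1.99), RPS (-1.81), MRPL (-1.57) and MRPS (-1.55). Next came LSM proteins, some of which form the ring on spliceosomal U6 RNA, with 8 of 12 lower and a median of -1.53. TIMM proteins of mitochondrial import had 11 of 12 lower and a median of -1.27. The signs of the medians of ZNF, KLHL, ARHGAP, HOXA, LSM and TIMM were the same with RLE size factors and with total counts.

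Whether levels at 30 min differed from those at 15 min was tested directly. At 30 min 236 genes (2.26%) were higher and 290 (2.78%) lower than at 15 min, 5.04% in all (edgeR, adjusted p under 0.05 over the same 10439 genes), and this test shares the 30 min replicates with the comparison above. The split depends on the scaling, with 198 higher and 391 lower with RLE size factors and 315 and 202 with total counts. It also rests on single replicates: without replicate 1 or 2 of 30 min 65 and 108 genes were higher and 78 and 52 lower, and without replicate 1 or 2 of 15 min 125 and 118 were higher and 354 and 65 lower.

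Of the 25 immediate-early factors 15 were higher at 30 min than at 15 min, against 2.26% of all genes, with a median difference of 1.65 on the log2 scale, against -0.01 over all genes. DUSP1 had 14.5 and 17.0 CPM at 0 min, 40.1 and 44.5 CPM at 5 min, 219.8 and 158 CPM at 15 min and 816 and 621 CPM at 30 min, and differed by 1.93 ± 0.19 (SE) between 30 and 15 min (edgeR adjusted p = 3.42e-08). FOS had 8.46 and 23.2 CPM at 0 min, 0 and 3.53 CPM at 5 min, 150.0 and 179.8 CPM at 15 min and 665 and 545 CPM at 30 min, with a difference of 1.88. NR4A3 had 0 counts at 0 min and 0 and 1.41 CPM at 5 min, 3.88 and 0.684 CPM at 15 min and 63.1 and 54.1 CPM at 30 min. In all of them both replicates of 30 min were the highest of the 8. ADAMTS1 and ID3, which are no members of that list, were also higher at 30 than at 15 min, by 1.01 and 1.79 on the log2 scale.

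Of 79 chromatin modifiers 2 were higher at 30 min than at 15 min, close to the 2.26% of all genes. ARID1B had 76.1 and 60.2 CPM at 0 min, 817 and 836 CPM at 5 min, 647 and 564 CPM at 15 min and 555 and 537 CPM at 30 min, with a difference of -0.15 between 30 and 15 min (edgeR adjusted p = 0.754). Of the housekeeping lists, 39 of 74 respiratory chain genes, 20 of 86 cytosolic ribosomal proteins and 7 of 31 proteasome subunits were lower at 30 min than at 15 min, against 2.78% of all genes. ATP5O had 2255 and 2598 CPM at 0 min, 748 and 703 CPM at 5 min, 589 and 847 CPM at 15 min and 350.1 and 366 CPM at 30 min, with a difference of -1.004 between 30 and 15 min (edgeR adjusted p = 0.00104, and 0.0534 without replicate 1 of 30 min). The actins showed another course. ACTB had 2286 and 2192 CPM at 0 min, 440.2 and 398 CPM at 5 min, 502 and 669 CPM at 15 min and 1691 and 1405 CPM at 30 min, and was 1.40 higher on the log2 scale at 30 than at 15 min (edgeR adjusted p = 2.37e-05).

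**Figure D5:**
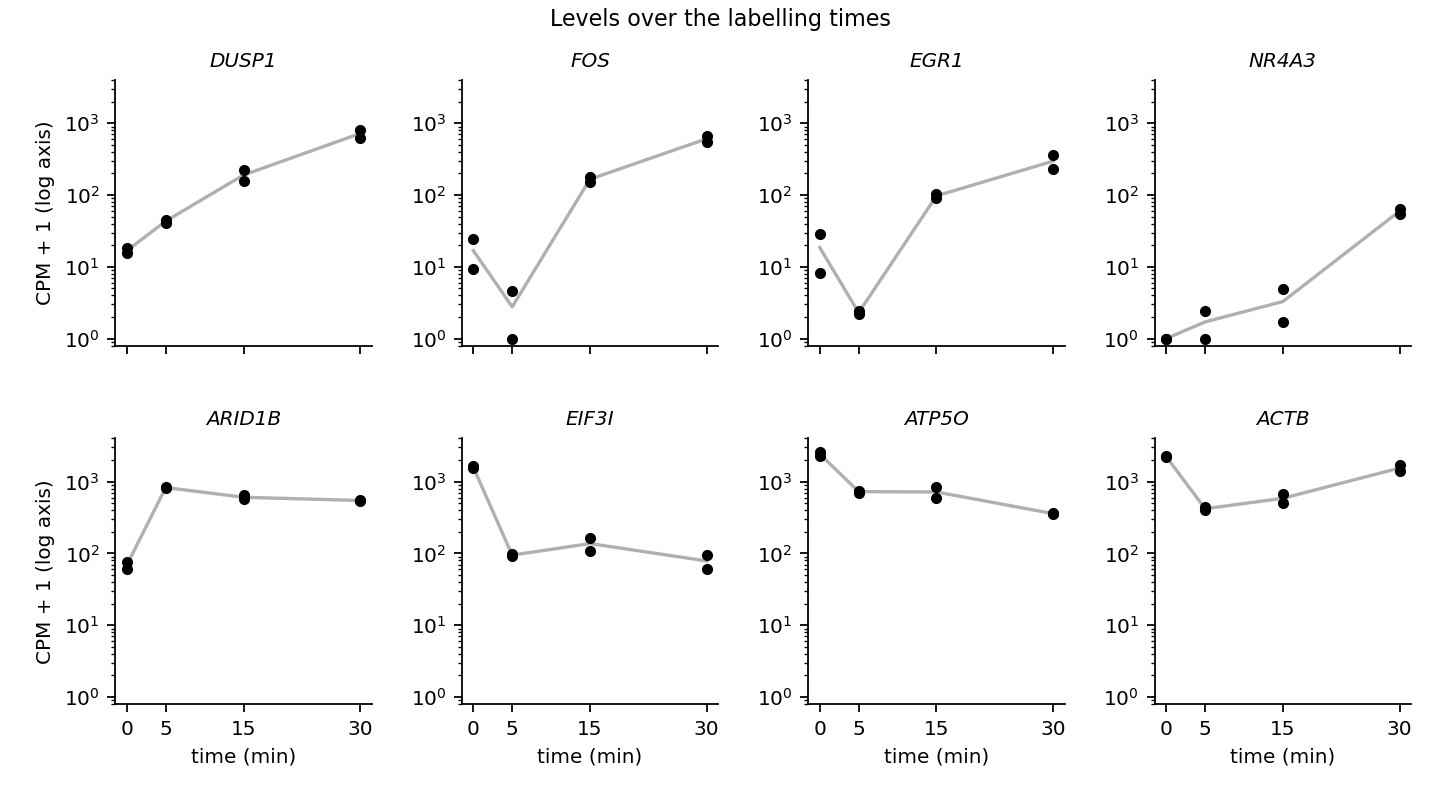
Level of 8 genes at 0, 5, 15 and 30 min (TMM-scaled CPM + 1, log axis), with points for the 2 replicates and a line through their mean. DUSP1, FOS, EGR1 and NR4A3 reach their highest level at 30 min, ARID1B is already high at 5 min, EIF3I and ATP5O are low from 5 min on, and ACTB is lowest at 5 min.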

How the data were processed

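Counts of 32738 gene entries in 32 libraries were deposited by the authors in 1 table. Reads were aligned with STAR to hg19, per the submitters' processing notes. No source used here says if counts are of reads or molecules, or if strand was used. For 4 libraries the tagmentation number differs between header and labels, which changes no sum. Library totals were 228910 to 381471. Counts were summed per biological replicate, and nothing in the labels says that replicates came from separate cultures, so p-values measure the spread between these samples.

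All 8 replicates were fitted in edgeR 4.0.16 (R 4.3.3) with TMM scaling, filterByExpr, the two-sided quasi-likelihood F test (4 residual degrees of freedom), calling genes at a Benjamini-Hochberg adjusted p under 0.05 over 10439 genes. The filter used all 4 times, so a gene absent at 0 min was tested if its counts at a labelled time sufficed. An exact permutation test of 2 against 2 cannot go below p = 0.333. The script was tested on simulated data. Alternatives were other scalings and filters, DESeq2 1.42.0, subsets of libraries, each replicate of 0, 15 or 30 min left out and a replicate block. The replicates of the remaining time were in the fit but were not left out in turn.

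Genes were named by size of change, level and rank within lists: the 10 largest increases and decreases with at least 10 counts at each time, a mean of at least 10 CPM and no overlap, the 6 highest near 0 at the other time, and the extremes of each list. Any other gene was named with its values known. Of 143 genes picked, 93 are given values, and the others, picked within lists or for their level, are given none here. The comparison, the 35 gene lists and the tests were chosen with earlier results of these data known. Gene spans come from GENCODE release 29 and promoters from RefSeq (GRCh38.p14), matched by symbol, and counts from hg19 were not given coordinates. Intervals cover counting error only, at 95%.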

Additional observations from a re-analysis of the deposited data

How the results depend on the processing

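The median log2 fold change of all genes, 0.35, was 0.18 with RLE size factors, 0.18 in DESeq2, 0.17 in a fit of 0 and 30 min alone and 1.22 with total counts, where 5622 genes were higher and 1331 lower, against 3352 and 2485. The other alternatives stayed within 1.5 times of both counts. With 1 replicate left out they ran from 2862 to 3425 higher and 2132 to 2402 lower, with medians of 0.33 to 0.44. Between 30 and 15 min, 236 higher and 290 lower became 111 higher in DESeq2, 85 and 90 with cDNA preparation 1 only, 121 higher with cDNA preparation 2 only, and 65 to 315 higher and 52 to 354 lower with 1 replicate left out. Of 139 named genes that passed, 120 kept direction and call in every alternative that gave a value. Values with the opposite sign came with total counts for ACTB (0.35), ACTG1 (0.30), CCT4 (0.45), H3F3B (0.40) and VIM (0.014), with cDNA preparation 2 only for CCT4 (0.040), and, among genes that had not passed but did so there, with total counts for ATF4 (0.72), EIF3A (0.82), MT-ND1 (0.65) and PABPC1 (0.73). Replicate numbers do not pair the samples: deviations of same-numbered replicates correlated at -0.03 to 0.08 between times. With the replicate block 3287 genes were higher and 2455 lower at 30 than at 0 min, and 217 and 273 at 30 than at 15 min. Depth limits genes with 0 counts at 0 min, whose fold is a bound against 3 counts over both replicates, 2.03 CPM, and those with 1 to 3 counts, given as ratios with wide intervals. The cause of these differences was not tested.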
